A study of Sus scrofa with 4 samples.

Results

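The expression of 8 heat shock protein and chaperone genes (CRYAB, HSPB1, HSPA8, HSPD1, HSPA5, HSP90AA1, HSP90AB1 and HSPH1) was examined in infarcted minipig hearts with and without grafted myoblasts. The members were taken by gene symbol: every probe set that the array's annotation assigns to one of these genes was used, which gave 16 of the 24123 probe sets on the array. CRYAB had 2 probe sets, HSPA8 had 4, HSP90AA1 had 5, and each other gene had a single one. All 8 symbols were found in the annotation, and none of the 16 probe sets was assigned to several genes.

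RNA of 4 tissue samples was hybridized to 1 Affymetrix Porcine Genome Array each: border zone and infarct zone of hearts that had received myoblasts, and border zone and infarct zone of untreated control hearts, all after myocardial infarction (MI). According to the methods, the animals were young female Chinese Bama minipigs with a ligated left circumflex coronary artery, the grafted cells were human skeletal myoblasts injected in culture medium, and recipients and medium-injected controls both received cyclosporin A. The labels name the control tissue untreated and give its treatment as none, so medium and cyclosporin A cannot be placed in that group with certainty, and a ratio of myoblast over control may hold them too. The number of minipigs behind an array and the time of sampling are not given in the sources used here. With 1 array per condition, differences between treatments and between individual minipigs cannot be told apart. Errors over minipigs are lacking for this reason, and no test was made.

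Values are MAS 5.0 signals in linear units, and a log2 ratio is the log2 signal with myoblasts minus that of control in the same zone. Pairs of values with no zone named are those of the border and the infarct zone, in that order. Signals of different probe sets also depend on their probes and are not compared as amounts of RNA. The medians of the 4 arrays lay between 137 and 142 units. Of the 16 member probe sets, 15 were above the median of every array, and the dimmest HSPA8 probe set was not. The ratio of 3' to 5' signal of EF1A, a sign of how complete the labelled RNA was, was 3.01 and 2.49 with myoblasts against 4.17 and 4.13 in control (border and infarct zone), while that of GAPDH was 1.73 and 1.38 against 1.55 and 1.52. That of actin was much higher on all arrays, 24.6 and 19.5 with myoblasts against 24.9 and 36.8 in control, and was highest in the control infarct zone. The part of these in the ratios below was not tested. All 13 measured cardiomyocyte markers were above the median of each array, whereas the 8 measured markers of skeletal muscle and myoblasts, MYOD1 and MYF5 among them, were at or below it on all 4. The array was made for pig transcripts, and how far transcripts of the human graft bind to it was not tested.

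Heat shock proteins keep other proteins folded. The small heat shock proteins (CRYAB, HSPB1 and relatives) hold unfolded proteins without using ATP and are abundant in heart muscle, where they bind desmin and actin filaments. The HSP70 family binds short unfolded stretches in an ATP-driven cycle set by J-domain proteins and nucleotide exchange factors, and HSP90 acts late on kinases, steroid receptors and myosin. HSPD1 folds imported proteins in mitochondria and HSPA5 in the endoplasmic reticulum. Many of these genes are induced through the heat shock factor HSF1 or, in the endoplasmic reticulum, through the unfolded protein response, and their proteins can act as danger signals once released from dying cells after MI. Probe sequences were not used here.

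A single probe set among the members passed 2-fold, the dimmer CRYAB probe set, which was lower with myoblasts in both zones. Its assignment to CRYAB rests on the annotation, and its name shares a number with the probe set of the neighbouring gene HSPB2. In the border zone 1 of 16 member probe sets was at least 2-fold lower, against 10.4% of all probe sets, and none was at least 2-fold higher, against 9.95% of all. In the infarct zone the numbers were again 1 lower and 0 higher, beside 9.58% and 10.5% of all probe sets. The median log2 ratio of the members was -0.22 (border) and -0.07 (infarct), beside 0.002 and 0.01 over all probe sets. With quantile normalization, which gives all arrays the same distribution, the member medians were -0.17 and 0.00, so the lower median of the infarct zone was not seen under that scaling.

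**Figure D1:**
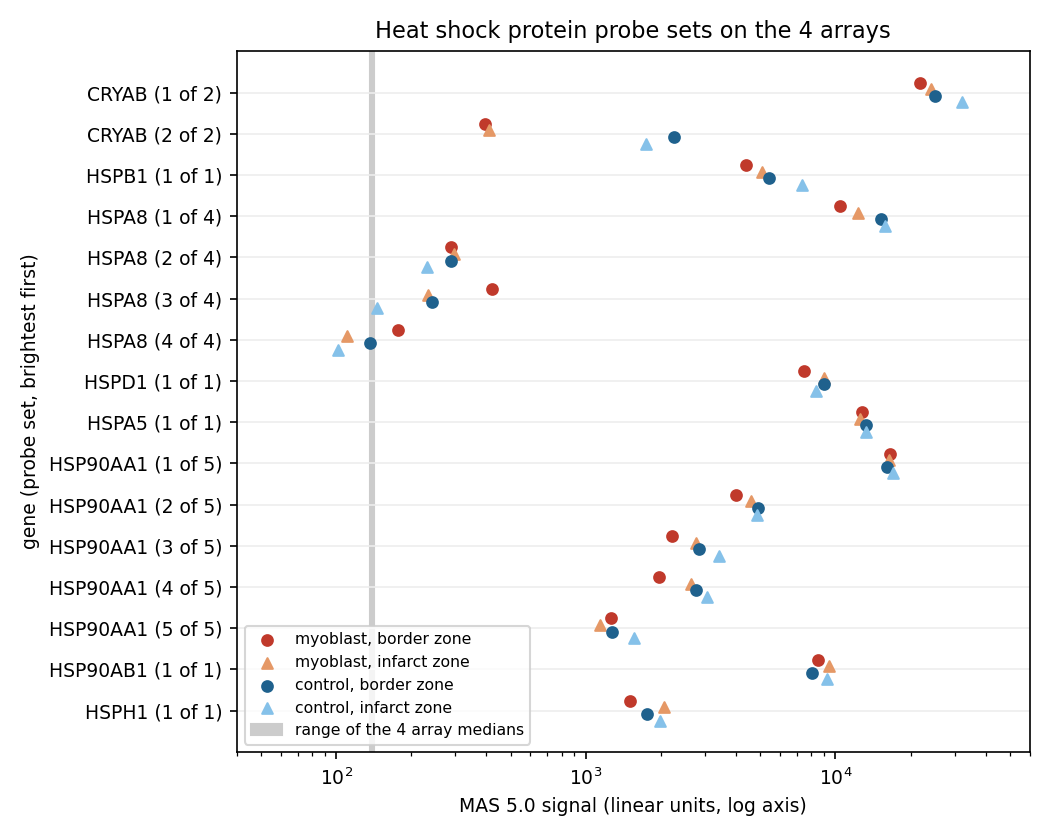
MAS 5.0 signal (x axis, linear units on a log axis) of each member probe set (y axis, brightest probe set of a gene first) on the myoblast arrays (red and orange) and the control arrays (dark and light blue), with circles for the border zone and triangles for the infarct zone. The dimmer CRYAB probe set stands apart, with 393.6 and 411 units with myoblasts against 2261 and 1736 in control.

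Ratios just under 1 were nevertheless more common among the members than ratios over 1. Both myoblast arrays were below both control arrays for 9 of 16 member probe sets, against 22.1% of all probe sets, and above them for 1, against 22.8%. The 9 were both CRYAB probe sets, all HSP90AA1 probe sets but the brightest, the brightest of HSPA8, and those of HSPB1 and HSPA5. Genes with several probe sets thus weigh more in these counts, and probe sets of the same gene are not separate observations. Over the whole array, probe sets of high signal were also more often below control. Probe sets above the median of every array (10940) did not lean this way: 24.9% had both myoblast arrays below and 27.3% above both controls, and the members counted 9 and 1 of 15. For the 1849 probe sets whose mean signal reached 2048 units the shares were 40.1% and 20.4%, and the members counted 7 and 0 of 10. A ratio under 1 in both zones was found for 9 of 16 member probe sets, against 29.7% of all, and a ratio over 1 in both for 4, against 30.7%. These 9 are the same probe sets as those with both myoblast arrays below both controls. After quantile normalization, 7 member probe sets had both myoblast arrays below both controls, against 22.6% of all probe sets, and 2 had them above, against 22.0%. Under that scaling the shares of the probe sets of high signal were 31.2% below and 26.5% above, so they were less uneven than on the deposited scale.

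The spread between zones gives the only yardstick within these arrays. For the 397 probe sets whose mean signal was at least 8192 units, 6 of them members, the log2 difference of infarct over border zone had an SD of 0.31 with myoblasts and 0.13 in control. The log2 ratio of myoblast over control of the same probe sets had SDs of 0.30 and 0.28, around medians of -0.12 and -0.21. From 2048 to 8192 units, where 4 further members lie, the SD between zones was 0.37 with myoblasts and 0.18 in control. These SDs are taken across probe sets and say nothing of the spread between minipigs.

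**Figure D2:**
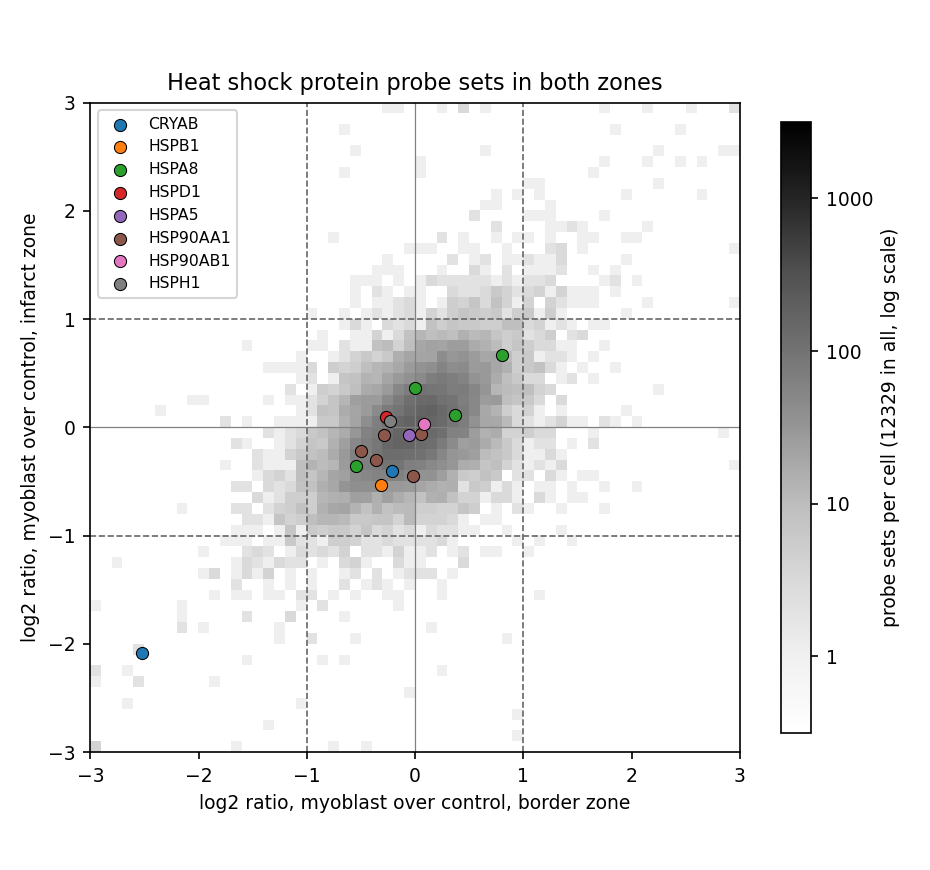
Log2 ratio of myoblast over control in the border zone (x axis) and in the infarct zone (y axis) of the 16 member probe sets (coloured by gene) over the 12329 probe sets with a mean signal of at least 128 units (grey cells, values past the axis limits set to the edge). Dashed lines mark 2-fold, and only the dimmer CRYAB probe set lies beyond them, at -2.52 and -2.08.

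Among the small heat shock proteins, CRYAB encodes alpha B-crystallin, the main small heat shock protein of heart muscle. Its brighter probe set (Ssc.10931.1.S1_at) had signals of 21731 and 24205 with myoblasts (border and infarct zone) and of 25055 and 32015 in control. The arrays did not overlap, but the log2 ratios of -0.21 and -0.40 were within 1 SD of the medians of probe sets this bright, and within control hearts the zones were 0.35 apart. With quantile normalization the ratios were -0.14 and -0.04. The dimmer probe set (Ssc.19588.2.A1_at) had 393.6 and 411 units with myoblasts and 2261 and 1736 units in control. Control exceeded myoblast tissue 5.74-fold and 4.22-fold on this probe set, and the myoblast arrays were nearly alike (0.06 apart on the log2 scale) while the control zones were 0.38 apart, with the border zone higher. Quantile normalization left these log2 ratios at -2.56 and -2.10.

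The probe sets annotated as CRYAB thus shared a direction but not a size. Their log2 ratios lay 2.32 apart in the border zone and 1.67 apart in the infarct zone. Among the 759 genes with several probe sets above the median of every array, the range of log2 ratios over a gene's probe sets had medians of 0.32 and 0.28, and 2 and 3 of these genes reached a range of 2. Which stretch of the CRYAB transcript each probe set reads was not analysed here. By the likeness of centred log2 signals over the 4 arrays, the nearest of 6088 probe sets of other genes to the dimmer CRYAB probe set was one of TACC1, a centrosome and microtubule protein (root mean square distance 0.11), with 154.6 units with myoblasts against 894.9 in control (border zone) and 147.2 against 768.9 (infarct zone). The orphan nuclear receptor gene NR4A3 (0.24) and the class I antigen gene SLA-3 (0.25) followed. This is a likeness over 4 arrays only.

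HSPB1 encodes HSP27, which binds actin and is phosphorylated under stress. Its probe set had 4362 units with myoblasts against 5438 in control (border zone) and 5073 against 7347 (infarct zone). Both myoblast arrays were below both controls, with ratios of 0.802 and 0.69, and the infarct zone was the higher zone in either treatment. Zones differed by 0.22 (myoblast) and 0.43 (control) on the log2 scale, about as much as the treatments did (-0.32 and -0.53, or -0.28 and -0.43 with quantile normalization).

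Genes of the remaining small heat shock proteins showed the same direction. All 5 that were measured (HSPB2, HSPB3, HSPB6, HSPB7 and HSPB8, each by its brightest probe set) had ratios under 1 in both zones, where 31.3% of all 6765 genes did and 33.2% had ratios over 1 in both. Most of these genes had a high signal, and probe sets of high signal leaned below control on the deposited scale. Of the probe sets with a mean signal of at least 2048 units, 40.1% had both myoblast arrays below both controls and 20.4% above. Of the 5 genes, 3 had both below and 0 had both above. The median log2 ratios of the 5 genes were -0.67 and -0.38, beside 0.02 and -0.001 over the brightest probe sets of all genes. With quantile normalization they were -0.67 and -0.37. HSPB3, a small heat shock protein of striated muscle, had 1088 units with myoblasts against 2293 in control (border zone) and 1611 against 2422 (infarct zone), and its ratio of 0.475 in the border zone made it the only one of the list past 2-fold, against 5.71% of all genes. HSPB7, which is rich in heart and binds filamin and titin, had 4380 units with myoblasts against 7612 in control and 6108 against 9245. HSPB8, the partner of BAG3 in the autophagy of damaged filament proteins, had 2267 units with myoblasts against 3604 in control and 3147 against 3802. HSPB2 and HSPB6 were nearer to control, with ratios of 0.929 and 0.769, and of 0.835 and 0.772, and the dimmer HSPB6 probe set had 1.32 and 1.18. HSPB6, HSPB7 and HSPB8 are named here after their values were seen.

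HSPB2 and CRYAB are neighbours in the RefSeq gene order of the pig. The dimmer CRYAB probe set and the HSPB2 probe set carry the same first number in their names, whereas the brighter CRYAB probe set carries another, and the annotation alone assigns the dimmer one to CRYAB. Whether it reads CRYAB, HSPB2 or both was not tested. HSPB2 had 2432 units with myoblasts against 2617 in control (border zone) and 2787 against 3622 (infarct zone). The log2 ratios of HSPB2, -0.11 and -0.38, were close to -0.21 and -0.40 on the brighter CRYAB probe set and far from the dimmer one.

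Most cardiomyocyte markers were below control beside the small heat shock proteins. Of 13 measured (18 listed), 11 had ratios under 1 in both zones, against 31.3% of all genes. Ratios over 1 in both were found for 1, the atrial natriuretic peptide gene NPPA (4.24 and 3.38), against 33.2% of all genes. The summed signal of the list was 240675 with myoblasts against 278094 in control (border zone) and 258221 against 320233 (infarct zone), which is 0.865 and 0.806 times control, and the median log2 ratio was -0.26 and -0.35. Cardiac troponin T (TNNT2), for example, had ratios of 0.765 and 0.787, beside 0.867 and 0.756 for the brighter CRYAB probe set. Probe sets of any gene with a mean signal of at least 8192 units also leaned below control, with medians of -0.12 and -0.21. Values of the markers with quantile normalization are not given here. In bulk tissue, fewer cardiomyocytes and less of an RNA per cell cannot be told apart, and the part of these markers in the ratios of CRYAB and HSPB1 was not tested. Macrophage markers had summed signals of 4200 units with myoblasts against 3533 in control and 5612 against 4038, with median log2 ratios of 0.28 and 0.46. Of their 7 measured genes, 3 had ratios over 1 in both zones and none under 1 in both, beside 33.2% and 31.3% of all genes, and CD14 and ITGAM were at or below the median of every array.

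HSPA8 encodes the constitutive cytosolic HSP70, which also uncoats clathrin vesicles. Its brightest probe set (Ssc.16804.1.A1_at) had 10401 units with myoblasts against 15202 in control (border zone) and 12298 against 15777 (infarct zone). Both myoblast arrays were below both controls, with ratios of 0.684 and 0.779, and the control zones were only 0.05 apart on the log2 scale. The other probe sets, all much dimmer, were not below control. The next one (Ssc.19203.1.A1_at) had 288 units with myoblasts against 287 in control and 297.4 against 231.2, with ratios of 1 and 1.29, so the border zone arrays were equal. Another (Ssc.19203.2.S1_at) had 422.5 units with myoblasts against 242.1 in control and 232.5 against 146.2, with ratios of 1.75 and 1.59. The last (Ssc.19203.3.S1_at) had 177 units with myoblasts against 136.9 in control and 110.2 against 102, near or below the array medians.

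The 4 HSPA8 probe sets did not agree in direction. A single probe set, the brightest, was lower with myoblasts in both zones, and the other 3 were higher, except that the border zone value of the second was equal to control, and its sign turned with quantile normalization and with centring on array medians. The log2 ratios spanned 1.35 (border) and 1.03 (infarct), or 1.21 and 0.82 with quantile normalization. The paper lists an HSPA8 entry over 2-fold higher with myoblasts, a ratio that none of these 4 probe sets reached in either zone. Which probe set that entry stands for was not determined. On the Ssc.19203.2.S1_at and Ssc.19203.3.S1_at probe sets the border zone was the higher zone in both treatments, by 0.86 and 0.68 on the log2 scale with myoblasts and by 0.73 and 0.42 in control, so the zone differences were similar to those of treatment or larger. The probe sets of other genes nearest to Ssc.19203.2.S1_at over the 4 arrays were those of TTC8, HGSNAT and STX10 (distances of 0.12, 0.12 and 0.13), and 60 of 6087 lay within 0.25, against 2 for the dimmer CRYAB probe set. HSP70 genes are alike in sequence, and probe sets of HSPA8, HSP70.2 and HSPA2 may share part of their signal.

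**Figure D3:**
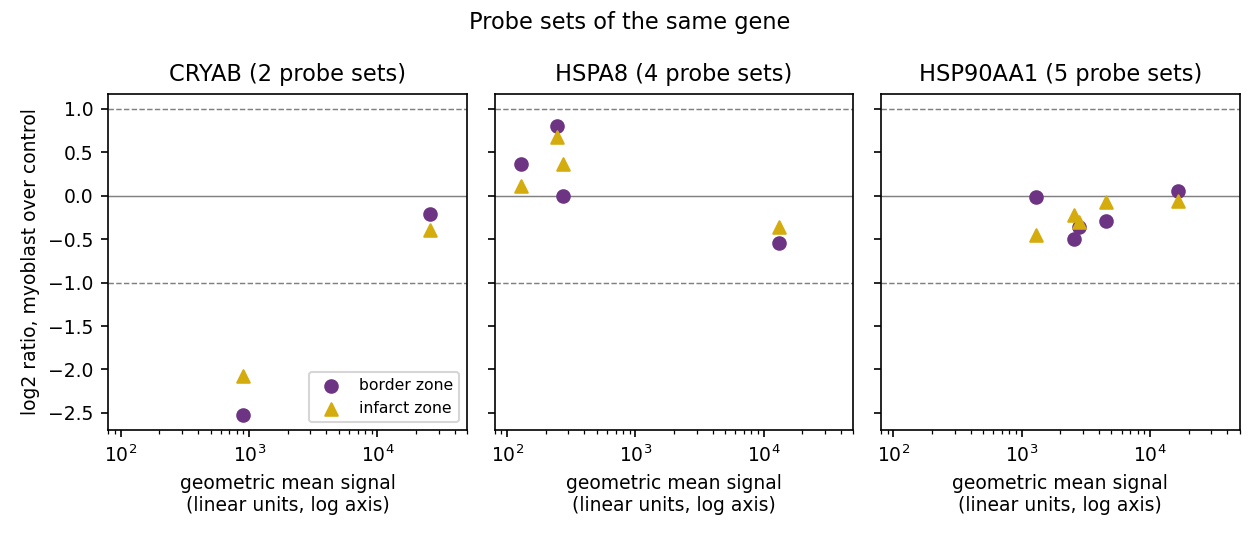
Log2 ratio of myoblast over control (y axis) against the geometric mean signal over the 4 arrays (x axis, linear units on a log axis) for each probe set of CRYAB, HSPA8 and HSP90AA1 in the border zone (circles) and the infarct zone (triangles). The CRYAB probe sets differ by 2.32 and 1.67, the HSPA8 probe sets fall on both sides of 0, and those of HSP90AA1 span 0.54 and 0.39.

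The other cytosolic HSP70 genes did not share a direction. HSP70.2, the stress-inducible HSP70 of the pig, had 8368 units with myoblasts against 11858 in control (border zone) and 8668 against 11496 (infarct zone), and its 3 probe sets agreed, with ratios between 0.706 and 0.761. HSPA2, an HSP70 best known from the testis, had 330 units with myoblasts against 722.1 in control and 308.4 against 750. Its ratios of 0.457 and 0.411 passed 2-fold in both zones, and with 1 probe set they could not be checked against another. HSPA6, an HSP70 known as strictly inducible in human cells, was on the other side, with 243.3 units with myoblasts against 150.8 in control and 241.9 against 127.2. Its myoblast arrays were both above control, with ratios of 1.61 and 1.9, and 3 of its 4 arrays were above the median. HSPA4 and HSPA14 had ratios between 0.808 and 0.955, and HSPA12A, below the median of every array, had 1.19 and 1.21. BAG1, a nucleotide exchange factor of HSP70, had 1179 units with myoblasts against 1927 in control and 1430 against 2426, and its dimmer probe set was lower too (0.47 and 0.741). HSPH1, a member of HSP110 type that releases ADP from HSP70, did not separate the treatments. It had 1503 units with myoblasts against 1759 in control (border zone) and 2057 against 1978 (infarct zone), and with myoblasts its zones were further apart (0.45 on the log2 scale) than the treatments in either zone.

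Over the list of cytosolic HSP70 genes and cochaperones, 22 of 32 were measured, each counted by its brightest probe set. At least 2-fold lower were 1 gene (border zone) and 1 (infarct zone), HSPA2 in both, against 5.71% and 5.69% of all genes. At least 2-fold higher were 1 gene in the border zone, DNAJC9, a histone-binding J-domain protein (151.5 units with myoblasts against 59.2 in control, above the array median on 1 array only), and none in the infarct zone, against 6.37% and 6.44% of all genes. The median log2 ratios were -0.19 and -0.23, with 13 genes under 1 in both zones, against 31.3% of all genes, and 5 over 1, against 33.2%. DNAJB6, a J-domain protein that keeps polyglutamine proteins from aggregating, had the highest mean ratio among genes above the median of every array, with 1977 units with myoblasts against 1195 in control and 1401 against 1072. Its other probe sets had ratios of 1.07, 0.719 and 1.39 in border tissue and of 1.25, 0.916 and 1.09 in infarct tissue. DNAJB1, a classical target of HSF1, had 374.4 units with myoblasts against 550.2 in control in the border zone but 523.8 against 440.4 in the infarct zone. BAG3, which ties HSP70 to HSPB8, had ratios of 0.863 and 1.08. HSP70.2, HSPA4, HSPA6, HSPA12A, HSPA14, BAG1, DNAJC9, DNAJB1 and BAG3 are named after their values were seen.

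HSP90AA1 and HSP90AB1 encode the inducible and the constitutive cytosolic HSP90. The brightest of 5 HSP90AA1 probe sets (Ssc.12191.1.A2_at) had 16546 units with myoblasts against 16011 in control (border zone) and 16372 against 17060 (infarct zone), so the treatments overlapped. The other 4 had both myoblast arrays below both controls. Ssc.15662.1.S1_at had 3983 units with myoblasts against 4871 in control and 4590 against 4834. Ssc.12191.2.A1_at had 2210 units with myoblasts against 2831 in control and 2770 against 3409, and Ssc.12191.1.A1_at had 1961 against 2768 and 2634 against 3061. The dimmest, Ssc.12191.3.A1_at, had 1256 units with myoblasts against 1273 in control and 1141 against 1559, with ratios of 0.987 and 0.732. The log2 ratios of the 5 probe sets spanned 0.54 (border) and 0.39 (infarct), less than those of CRYAB and HSPA8, and all 5 had infarct zone ratios under 1. With quantile normalization the log2 ratio of the brightest probe set in the infarct zone was 0.10, on the other side of 0 from the deposited scale (-0.06).

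The single HSP90AB1 probe set had 8509 units with myoblasts against 8040 in control (border zone) and 9452 against 9228 (infarct zone). Its log2 ratios of 0.08 and 0.03 were smaller than its difference between zones, 0.15 with myoblasts and 0.20 in control on the log2 scale, and centring on array medians gave -0.01 in the infarct zone. HSP90 genes are closely related, and their probe sets may share part of their signal. Of 15 listed HSP90 cochaperones 10 were measured and none reached 2-fold in either zone on its brightest probe set, with medians of -0.10 and -0.04. Over all genes, 5.71% and 5.69% were at least 2-fold lower and 6.37% and 6.44% higher. With 10 genes, a count of none is not far from these shares. FKBP5, an HSP90 cochaperone of steroid receptors, had the lowest mean ratio (2466 units with myoblasts against 3888 in control and 2665 against 3821). The other FKBP5 probe set, below the median of every array, had ratios of 0.519 and 1.01. SUGT1, an HSP90 cochaperone that also acts at kinetochores, had the highest mean ratio (908.2 units with myoblasts against 726.2 in control and 871.9 against 708.1).

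HSPD1 encodes HSP60, the chaperonin of the mitochondrial matrix. Its probe set had 7501 units with myoblasts against 9017 in control in the border zone, but 8967 against 8346 in the infarct zone. The log2 ratios of -0.27 and 0.10 lay on opposite sides of 0, and the zones were 0.26 apart with myoblasts and 0.11 apart in control, the infarct zone being higher with myoblasts and lower in control. HSPE1, the HSP10 lid of the same chaperonin and the neighbour of HSPD1 in the RefSeq gene order, had 10156 units with myoblasts against 9924 in control and 11040 against 10984. Its ratios of 1.02 and 1.01 were within the difference between zones. HSPE1 is named after its values were seen.

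Of 12 listed mitochondrial chaperones and proteases 8 were measured, and none reached 2-fold on its brightest probe set (medians -0.05 and -0.04). Among all genes 5.71% and 5.69% were at least 2-fold lower and 6.37% and 6.44% higher, so none of 8 is not far from these shares. DNAJC19, a J-domain protein of the mitochondrial import motor, had the lowest mean ratio, with 1736 units with myoblasts against 2575 in control (border zone) and 1813 against 2665 (infarct zone). CLPB, a disaggregase, had the highest (367.5 units with myoblasts against 275 in control and 280.6 against 268.9). The other CLPB probe set had ratios of 1.19 and 1.43.

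HSPA5 encodes BiP, the HSP70 of the endoplasmic reticulum which also holds the sensors of the unfolded protein response inactive. Its signals were 12742 units with myoblasts against 13265 in control (border zone) and 12568 against 13217 (infarct zone). It was the steadiest member, with zones 0.02 and 0.01 apart, and although both myoblast arrays were below both controls, the log2 ratios were only -0.06 and -0.07. They were 0.06 and 0.05 with quantile normalization, so no direction can be given for HSPA5.

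Of 33 listed chaperones and folding enzymes of the endoplasmic reticulum 23 were measured, and none reached 2-fold in either zone on its brightest probe set. The shares of all genes were 5.71% and 5.69% at least 2-fold lower and 6.37% and 6.44% higher. Another FKBP14 probe set had 1310 units with myoblasts against 366.4 in control (border zone) and 610.7 against 417.7 (infarct zone). Its ratios were 3.58 and 1.46, whereas the brightest had 1.22 and 0.69 and the remaining one 1.09 and 0.749. Dim probe sets of CANX (0.36) and PDIA4 (4.16) also passed 2-fold in the border zone. The median log2 ratios of the list were 0.12 and 0.04, with 10 genes over 1 in both zones, against 33.2% of all genes, and 4 under 1, against 31.3%. Calreticulin (CALR), a calcium-binding lectin chaperone, had the highest mean ratio among genes above the array medians (1639 units with myoblasts against 1140 in control and 1605 against 1181). DNAJC3, which inhibits the kinase PERK, had the lowest (208.9 units with myoblasts against 225.4 in control and 199.2 against 246.4). The other DNAJC3 probe set, below the median of every array, had ratios of 1.66 and 0.833. HSP90B1, the HSP90 of this compartment, had ratios of 0.999 and 0.95 on its brighter probe set and of 0.751 in both zones on the other. HSP90B1, FKBP14, CANX and PDIA4 were named after their values were seen.

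Among regulators of the stress responses, ATF3 alone passed 2-fold in both zones. ATF3, a transcription factor induced by many kinds of stress, had 551.1 units with myoblasts against 1693 in control (border zone) and 755 against 1881 (infarct zone), with ratios of 0.326 and 0.401. Of 15 listed regulators of the unfolded protein response 7 were measured, each counted by its brightest probe set, with medians of -0.03 and -0.13. Lower at 2-fold were 2 of the 7 (border) and 1 (infarct), beside 5.71% and 5.69% of all genes. None was at least 2-fold higher, beside 6.37% and 6.44% of all genes. Whether such counts are unusual for 7 genes was not tested. PPP1R15A, a phosphatase subunit that restores translation, was lower at 2-fold in the border zone alone (log2 ratios of -1.32 and -0.07) and was named after its values were seen. ATF4 and XBP1, the main factors of this response, had log2 ratios of 0.15 and -0.13, and of 0.20 and -0.13. Asparagine synthetase (ASNS), a target of ATF4, had the highest mean ratio (895.7 units with myoblasts against 552.3 in control and 626.9 against 552.8). HSF1, the main heat shock factor, had 476.5 units with myoblasts against 377.7 in control (border zone) and 543.6 against 288.9 (infarct zone) on its brighter probe set, while the other was at 5.65 to 11.1 units. HSF2 had ratios of 0.935 and 1.06. None of the 3 measured genes in the list of heat shock factors (5 listed) reached 2-fold on its brightest probe set. With 3 genes this cannot be told from the shares of all genes. ATF4 and XBP1 were also chosen after their values were seen.

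Of the chaperonin TRiC, which folds actin and tubulin, and of prefoldin, which hands proteins to it, 11 of 15 listed genes were measured. On the brightest probe set of each gene, none was at 2-fold, and the medians were -0.17 and -0.04. At least 2-fold lower were 5.71% and 5.69% of all genes, and 6.37% and 6.44% were higher, so none of 11 is not far from these shares. The prefoldin subunit PFDN1 had the lowest mean ratio (1493 units with myoblasts against 2154 in control and 1697 against 2330) and the TRiC subunit CCT4 the highest (4003 against 3764 and 4356 against 3697). The other CCT4 probe set, far below the array medians, had ratios of 0.712 and 0.618.

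**Figure D4:**
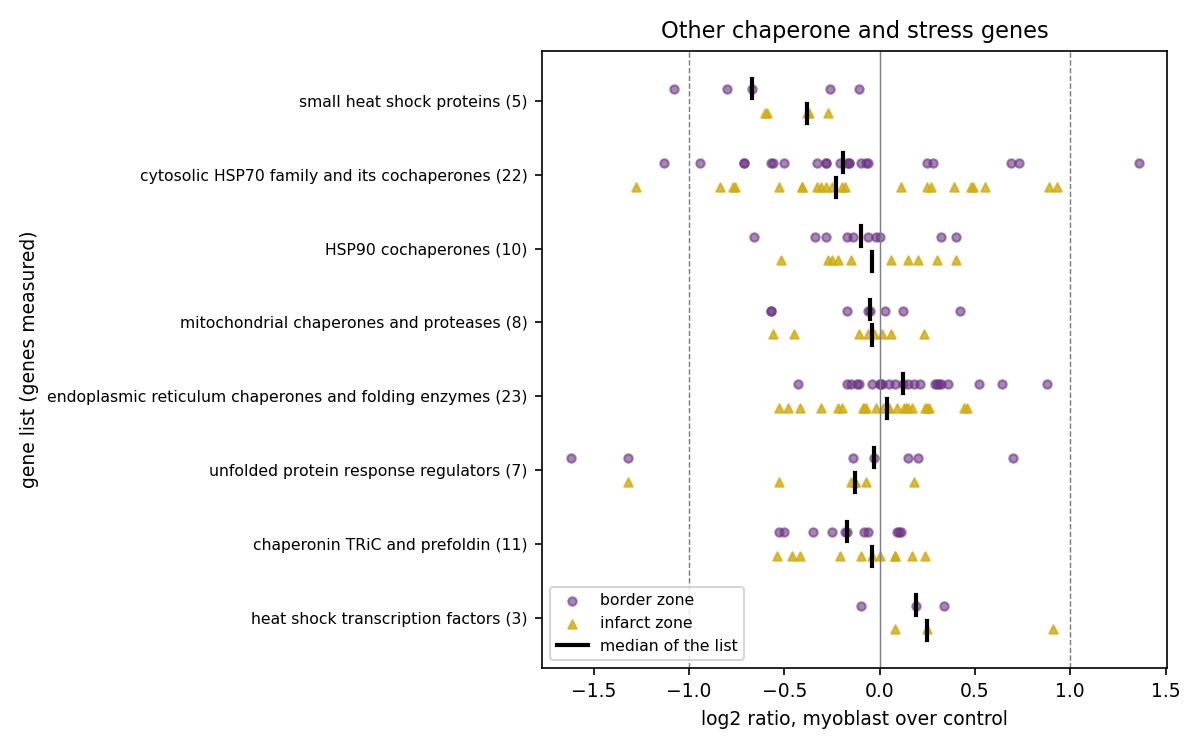
Myoblast over control as a log2 ratio (x axis) for each measured gene in lists of chaperone and stress genes (y axis, number measured in brackets), by its brightest probe set, in the border zone (circles) and the infarct zone (triangles), with black bars at the list medians and dashed lines at 2-fold. The small heat shock proteins all lie left of 0, with medians of -0.67 and -0.38, and the endoplasmic reticulum genes lie around medians of 0.12 and 0.04.

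Differences between the zones of 1 treatment were widest on dim HSPA8 probe sets, HSPH1 and HSPB1. With myoblasts the log2 signal of infarct minus border zone was -0.86 on Ssc.19203.2.S1_at, -0.68 on Ssc.19203.3.S1_at and 0.45 on HSPH1, and in control it was -0.73 and -0.42 on the same HSPA8 probe sets and 0.43 on HSPB1.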

How the data were processed

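Total RNA of heart tissue was hybridized to Affymetrix Porcine Genome Arrays, 1 array per condition. The methods name a GeneChip Scanner 3000, Command Console Software 3.1, MAS 5.0 normalization and Gene Spring Software 11.0. What the authors deposited are log2 MAS 5.0 signals, scaled per array (trimmed mean 500.1 linear units on each); precision falls with the signal. All 24123 probe sets were kept, 124 Affymetrix controls included. Probe sets were named from the platform annotation (single symbol for 10099, several for 198, none for 13826), and the gene ID of all 16 member probe sets had the same symbol in RefSeq.

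Ratios, counts at 2-fold (the threshold of the methods) and medians were computed in Python 3.11.15 with pandas 2.3.3, after the code was tested on simulated data with planted changes. No test was made. Each gene of a list was represented by the probe set of highest mean log2 signal. Named were all members, in each list the highest and lowest mean ratio among genes above the array median on all 4 arrays, genes past 2-fold in both zones, and the 3 nearest profiles of CRYAB and HSPA8. The members and lists were chosen with earlier results of these data known. Alternatives were centring on array medians, quantile normalization, a floor at the array median or at its 25th percentile, a restriction to probe sets above the median, the brightest or mean probe set of a gene, and thresholds of 1.5-fold and 4-fold. The non-overlap counts and the small heat shock protein list under these settings were added after the data were seen.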

Additional observations from a re-analysis of the deposited data

Results flagged for a closer look

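Log2 ratios of myoblast over control on opposite sides of 0 in the border and the infarct zone were found for 3 of 16 member probe sets. Of all probe sets, 29.7% had ratios under 1 in both zones and 30.7% over 1 in both, so opposite sides were common on the array. The log2 ratio of the border zone minus that of the infarct zone was -0.37 for HSPD1, -0.28 for HSPH1 and 0.11 for the brightest HSP90AA1 probe set. With quantile normalization the brightest HSP90AA1 probe set had 0.10 in both zones. With 1 array per zone and treatment, the difference between zones was not tested.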

How the results depend on the processing

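The counts at 2-fold (1 member probe set lower and 0 higher in each zone) held under quantile normalization, centring on array medians, both floors, probe sets above the array median, the mean over a gene's probe sets and a threshold of 4-fold. With the brightest probe set of each member, 0 were lower in either zone, since the dimmer CRYAB probe set then drops out. At 1.5-fold, 1 was higher in each zone, the HSPA8 probe set at 1.75 and 1.59. The shares of all probe sets at 1.5-fold and 4-fold are not given here, so those counts cannot be set against the array. The count with both myoblast arrays above both controls, 1 as deposited, was 2 with quantile normalization (22.0% of all probe sets), 0 with centring on array medians (21.0%), 2 with a floor at the array median (61.4%) and 0 over the brightest probe sets. With that floor, probe sets at the floor on all arrays count as above, because the medians of the myoblast arrays are the higher ones. The count with both below, 9 as deposited (22.1%), was 7 with quantile normalization (22.6%), 9 with centring (24%) and with either floor (19.8% and 12.8%), and 4 of 8 over the brightest probe sets. For the counts over the brightest probe sets, 4 below and 0 above, the shares of all genes are not given here. Whether they are unusual cannot be judged. The range over the CRYAB probe sets in the infarct zone was 2.05 with quantile normalization, since the brighter one was then at -0.04. Of 128 single ratios recomputed, 127 moved by less than 0.32 on the log2 scale, the SD of the members' zone differences in control. No leaving out of arrays was possible with 1 per condition. No paired analysis was possible, because there is 1 array per condition and the labels do not name the minipig behind each zone. The cause of these differences was not tested.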
